A study of Mus musculus with 16 samples.

Results

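The genes described here are 1185 of the 37255 intervals of a table of gene-wise ATAC-seq counts. They are the nuclear genes that span less than 1000 bp, once microRNA, small nucleolar RNA, histone, olfactory and vomeronasal receptor, ribosomal protein, respiratory-chain subunit, zinc finger, Hox and interferon-induced genes had been set aside by the start of their names. Of the 3464 nuclear intervals under 1000 bp, 2279 were set aside in that way. The table counts each gene over its span less 1000 bp at each side. For a gene shorter than 1000 bp this turns into a window of 2000 bp less the span, here 1001 to 1970 bp long, that holds the whole gene, its start and some flanking DNA. A longer gene has its start outside the counted part. Short genes therefore give a readout of accessibility at gene starts. The rule uses chromosome, span and name alone.

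The cells were retinal ganglion cells, the neurons whose axons form the optic nerve, sorted by flow cytometry from eyes of female mice; the strain was not given in the sources used here. Experimental autoimmune encephalomyelitis (EAE), an induced autoimmune inflammation of the central nervous system, was started at 7 to 8 weeks of age. Mice with EAE gave 4 presymptomatic, 3 onset and 4 peak libraries, and naive control mice gave 5. The labels do not tie a library to an animal, and every p-value here rests on the spread between libraries, which may be partly technical. The label of the cells was set against gene-body read density of marker genes in naive libraries. Of 20 ganglion cell markers, 17 lay above the gene-body median of 0.616, as did 14 of 15 rod and 10 of 11 amacrine and horizontal cell markers, 9 of 11 of Muller glia and astrocytes, 7 of 9 of cones, 6 of 10 of bipolar cells, 5 of 9 of endothelium and pericytes, 5 of 13 of microglia and macrophages, 4 of 13 of lymphocytes and 3 of 8 of oligodendrocytes. The markers do not single out ganglion cells.

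In ATAC-seq a transposase cuts open DNA and leaves sequencing adapters there, so reads pile up at active gene starts. Many mammalian gene starts lie in CpG islands, stretches rich in the base pair step CpG. These usually stay unmethylated and free of nucleosomes in most cell types, and many, though not all, serve genes that every cell uses. Starts of genes used in a single tissue, such as protamines in sperm or keratin-associated proteins in hair, are often poor in CpG and closed where the gene is not used. The short genes hold both kinds: 549 were predicted genes with Gm names, 85 carried Rik names of cDNA clones, and 220 were known by a transcript accession alone. The median span was 723 bp.

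Of the 1185 short genes, 1074 matched a gene of the RefSeq table (855 by symbol, 205 by transcript accession, 14 by an older name), and 602 had a RefSeq promoter sequence (build GRCm38.p6, 250 bases before to 50 bases after the start) within 50 bp of the deposited start. A promoter was called CpG-rich where its GC content was at least 50% and its CpG count at least 0.6 of that expected from its base composition. The first 8 promoters, all printed 5′ to 3′ on the strand of the gene with each CpG in capitals, are 3 CpG-rich starts, 2 dense starts that were CpG-poor (4632427E13Rik and Nop10) and 3 CpG-poor starts with few reads, because the reads described next differed between these kinds of sequence. They belong to Snhg8 (chr3:123508287-123508586, minus strand, 30 CpG), 1700084E18Rik (chr2:30237582-30237881, minus, 37 CpG), Mif (chr10:75860228-75860527, minus, 14 CpG, start 27 bp from the deposited one), 4632427E13Rik (chr7:92741410-92741709, minus, 16 CpG), Nop10 (chr2:112261676-112261975, plus, 7 CpG), Prm1 (chr16:10796774-10797073, minus, 1 CpG), Ifnb1 (chr4:88522745-88523044, minus, 3 CpG) and Hypm (chrX:9846697-9846996, plus, 2 CpG).
Snhg8: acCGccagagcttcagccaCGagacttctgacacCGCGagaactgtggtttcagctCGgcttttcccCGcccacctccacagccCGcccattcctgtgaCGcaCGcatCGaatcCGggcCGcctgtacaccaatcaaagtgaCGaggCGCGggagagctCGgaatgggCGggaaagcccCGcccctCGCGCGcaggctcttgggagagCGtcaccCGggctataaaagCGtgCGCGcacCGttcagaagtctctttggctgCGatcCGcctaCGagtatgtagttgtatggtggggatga
1700084E18Rik: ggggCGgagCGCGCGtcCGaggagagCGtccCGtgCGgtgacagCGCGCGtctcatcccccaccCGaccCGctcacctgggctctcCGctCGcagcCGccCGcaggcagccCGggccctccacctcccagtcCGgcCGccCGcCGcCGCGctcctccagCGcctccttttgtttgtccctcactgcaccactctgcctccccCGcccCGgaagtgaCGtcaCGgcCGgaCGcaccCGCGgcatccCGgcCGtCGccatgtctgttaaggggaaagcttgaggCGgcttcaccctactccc
Mif: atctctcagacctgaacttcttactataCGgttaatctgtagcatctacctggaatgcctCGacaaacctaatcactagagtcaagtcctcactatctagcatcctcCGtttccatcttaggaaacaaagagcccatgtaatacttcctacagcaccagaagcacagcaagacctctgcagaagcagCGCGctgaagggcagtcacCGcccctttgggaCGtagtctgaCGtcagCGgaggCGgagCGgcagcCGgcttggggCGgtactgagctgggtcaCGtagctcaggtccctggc
4632427E13Rik: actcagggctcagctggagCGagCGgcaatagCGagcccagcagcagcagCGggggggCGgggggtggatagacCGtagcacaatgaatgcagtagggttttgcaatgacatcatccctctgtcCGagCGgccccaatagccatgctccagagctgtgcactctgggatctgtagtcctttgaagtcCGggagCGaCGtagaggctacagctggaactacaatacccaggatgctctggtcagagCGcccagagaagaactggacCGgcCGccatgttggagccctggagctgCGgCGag
Nop10: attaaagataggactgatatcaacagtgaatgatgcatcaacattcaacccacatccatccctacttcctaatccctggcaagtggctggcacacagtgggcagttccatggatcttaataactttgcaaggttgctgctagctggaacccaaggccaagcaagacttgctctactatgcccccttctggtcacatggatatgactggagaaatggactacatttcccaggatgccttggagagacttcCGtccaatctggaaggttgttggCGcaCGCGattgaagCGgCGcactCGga
Prm1: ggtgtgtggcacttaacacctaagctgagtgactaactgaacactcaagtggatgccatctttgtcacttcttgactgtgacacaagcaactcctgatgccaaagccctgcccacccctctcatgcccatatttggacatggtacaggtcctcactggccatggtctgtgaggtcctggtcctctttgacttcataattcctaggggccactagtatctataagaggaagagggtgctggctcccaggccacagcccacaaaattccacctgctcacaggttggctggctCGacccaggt
Ifnb1: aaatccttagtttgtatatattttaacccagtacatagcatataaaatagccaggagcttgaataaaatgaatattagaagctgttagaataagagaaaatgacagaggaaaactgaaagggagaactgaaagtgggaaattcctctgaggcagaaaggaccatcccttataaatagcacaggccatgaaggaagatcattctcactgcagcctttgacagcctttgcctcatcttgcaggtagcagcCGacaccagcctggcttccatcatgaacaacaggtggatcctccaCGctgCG
Hypm: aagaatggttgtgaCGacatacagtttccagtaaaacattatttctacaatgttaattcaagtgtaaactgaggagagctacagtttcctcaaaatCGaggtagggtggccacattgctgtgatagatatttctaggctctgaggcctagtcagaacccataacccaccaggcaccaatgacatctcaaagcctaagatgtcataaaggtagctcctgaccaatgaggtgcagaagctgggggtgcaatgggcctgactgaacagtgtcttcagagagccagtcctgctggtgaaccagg

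Read density is given as reads per kb of counted window and per M (megaread) of nuclear reads in intervals, as the mean of the 5 naive libraries unless another group is named. The 73 short genes with a CpG-rich promoter had a median density of 9.87 (interquartile range 3.65 to 18.3), and 50 of them, 68.5%, exceeded 5. The 429 genes off chromosome Y with a CpG-poor promoter had a median of 0.536 (0.261 to 0.878), and 19 of them, 4.43%, exceeded 5. The CpG-poor median lay near that of 0.616 over 29641 gene bodies of at least 3000 bp. It takes in 35 genes without a read in any library and most of the 102 copied promoters described below, whose median was 0.0573. CpG-poor genes without a copied promoter were not summarised apart, so the median does not give the level at their starts. The 544 short genes off chromosome Y with no promoter entry had a median of 0.492. Other short genes of the table gave 14.7 over 61 histone genes, 0.771 over 908 olfactory and vomeronasal receptors, 0.603 over 1176 microRNAs and 0.555 over 114 small nucleolar RNAs. Library medians of the CpG-rich genes were 9.74, 9.75, 5.65, 7.14 and 13.0 in the 5 naive libraries, while gene-body medians were 0.525 to 0.653. In every naive library the CpG-rich median exceeded the gene-body median at least 10.8 times.

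**Figure D1:**
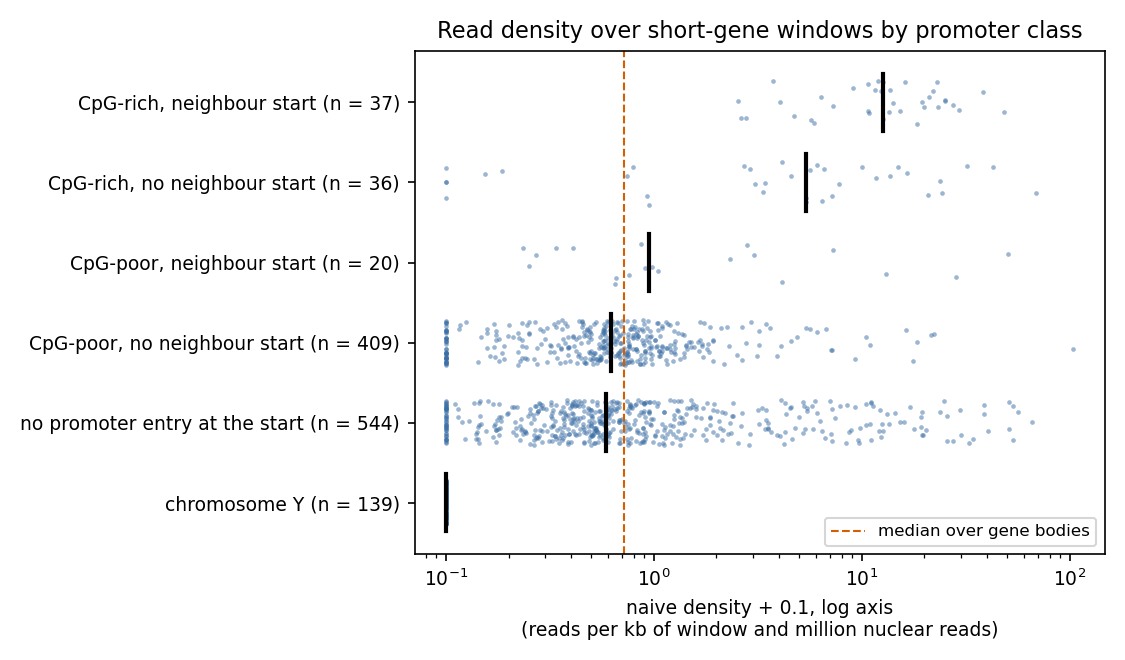
Naive read density of the short genes by promoter class, with or without the start of a longer gene in the window, on a log axis of density + 0.1 (reads per kb of counted window and M nuclear reads); each point is a gene, the black bar is the median of the class and the dashed line is the gene-body median of 0.616, also with 0.1 added. Both CpG-rich classes have medians right of the line (12.5 and 5.29), CpG-poor genes gather about it, and all 139 genes on chromosome Y lie at 0.

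Some windows also held the start of a neighbour. The counted window held the start of another gene of at least 1000 bp for 131 short genes, whose median density was 7.18, against 0.487 for the 915 others off chromosome Y. Within the CpG-rich genes the median was 12.5 with such a neighbour (n = 37) and 5.29 without one (n = 36). Within the CpG-poor genes it was 0.844 with a neighbour (n = 20) and 0.523 without (n = 409). The difference between promoter kinds was thus present with and without a neighbouring start. ATAC-seq reads carry no strand of transcription, and where 2 genes start from opposite strands within the same window their reads cannot be told apart. Across the 400 genes off chromosome Y whose promoter was not copied elsewhere, the CpG observed-to-expected ratio and log2(density + 0.1) had Pearson's r of 0.71 and Spearman's rho of 0.53, and GC content gave r of 0.54 and rho of 0.41. These correlations run across genes of the same libraries, which share depth and base composition, and are given as descriptions.

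**Figure D2:**
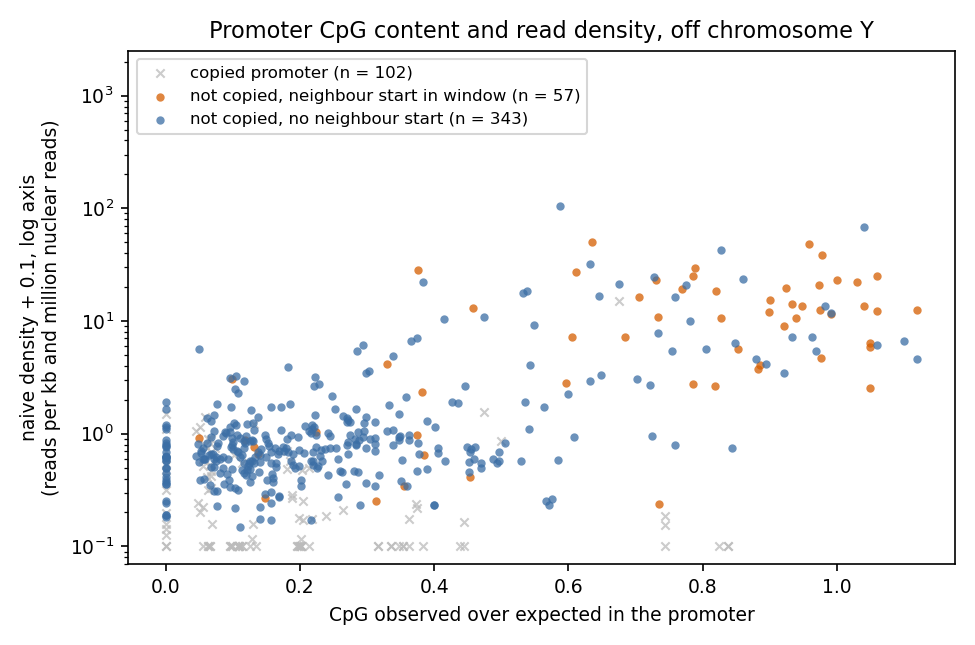
CpG observed-to-expected ratio of the promoter (horizontal axis) against naive read density + 0.1 (vertical log axis, reads per kb of counted window and M nuclear reads) for the 502 short genes with a promoter entry off chromosome Y; marks stand for copied promoters (crosses, n = 102) and for promoters not copied with (orange, n = 57) or without (blue, n = 343) the start of a longer gene in the window. Most promoters not copied lie higher at ratios over 0.6 than below, and most copied promoters lie low, 37 of them without a read in any library of any stage.

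Short letter patterns were counted in the promoters on both strands, as descriptions and not as binding sites. The GC box GGGCGG occurred in 68.5% of the CpG-rich and 8.62% of the CpG-poor short promoters, against 35.7% of all 32851 promoters of the table. The ETS pattern CCGGAAG was found in 19.2% of CpG-rich, 1.4% of CpG-poor and 8.86% of all promoters. The cyclic AMP response element TGACGTCA stood in 11.0%, 0.233% and 1.79%. The TATA box TATAAA ran the other way, with 6.85% of CpG-rich, 31.9% of CpG-poor and 13.6% of all promoters. CCAAT occurred in 38.4%, 48.5% and 37.4%. In all, 33.5% of the promoters in the table were CpG-rich. The patterns with CG in them share letters with the measure that made the classes, so their difference between classes is partly built in. The classes also rest on GC content, so the difference in TATAAA, which holds no G or C, is partly built in too.

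The densest short genes were mostly noncoding or uncharacterised transcripts, with some protein genes among them. The long noncoding RNA gene 4632427E13Rik (chr7:92740706-92741459, minus strand, coordinates as deposited here and for the genes that follow) had the highest density, with 88.5, 110, 85.3, 62.2 and 173 in the 5 naive libraries. Its mean was 104 ± 42.4 (SD, n = 5), its window shared no base with another interval, and its promoter, with a CpG ratio of 0.588, missed the CpG-rich mark by little. Snhg8, a noncoding host gene of a small nucleolar RNA (chr3:123507552-123508336, minus), had 68.2, 70.2, 61.3, 41.2 and 102, a mean of 68.6 ± 21.9. All 5 libraries were far above the gene-body median in both genes, and in both the fourth library was lowest and the fifth highest.

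Sf3b5, a subunit of the spliceosome's SF3B complex (chr10:13008450-13009183, plus), had 57.5, 51.3, 41.3, 39.5 and 78.2 in naive libraries, a mean of 53.5 ± 15.6. Sdhaf1, an assembly factor of mitochondrial succinate dehydrogenase (chr7:30321409-30322375, minus), had 30.7, 37.3, 16.3, 23.3 and 51.3, a mean of 31.8 ± 13.5. Nop10, a protein of the particles that pseudouridylate RNA (chr2:112261926-112262898, plus), had 19.4, 29.1, 14.3, 18.8 and 28.7, a mean of 22.1 ± 6.57. The fifth naive library was highest in Sf3b5 and Sdhaf1 and close to the highest in Nop10, and the third library, or in Sf3b5 the one after it, was lowest. Higd2a, a factor in assembly of cytochrome c oxidase, averaged 20.8 ± 5.23, and Mif, a cytokine and tautomerase made by many cell types, 16.4 ± 4.22. The mitochondrial ribosomal protein gene Mrpl34 averaged 17.6 ± 6.88, Mrpl53 6.32 ± 3.85 and Coa3, another cytochrome oxidase assembly factor, 3.24 ± 2.08 (n = 5 each). Nop10 was dense although its promoter, with 7 CpG and a ratio of 0.384, was classed CpG-poor. All 7 lie near the end of the printed sequence, at the gene start. The class does not cover the bases further into the gene, which the counted window holds, so whether CpG-rich sequence follows there is not known.

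Other dense windows lay beside the start of a longer gene. They include the noncoding Rab26os at 50.2 ± 24.8 beside Traf7 and the genes 1700092M07Rik at 28.3 ± 11.9 beside Stx5a and Toporsos at 25.0 ± 8.98 beside Topors (SD, n = 5 naive libraries each). An unnamed transcript near the histone variant gene H2afz on chromosome 3 had 66.0 ± 24.2. Rn7s1, a gene of the RNA of the signal recognition particle, had 38.6 ± 14.5 with the start of Rps29 in its window, and Rpph1, the RNA of ribonuclease P, 29.6 ± 13.6 with that of Parp2. Rn7s1 and Rn7s2 (19.5 ± 8.47) are near-identical copies between which reads may be split. The 6 opposite-strand and antisense transcripts had a median of 14.8. Gm31050 (chr8:46469991-46470951, minus, 53.1 ± 14.1) shared its window with no other interval. Of all 139 short genes over a density of 5, the start of a longer neighbour lay in the window of 77, and the 50 densest genes held 52.1% of all reads in short genes.

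Among genes picked after their values were seen, Rmrp, the RNA of ribonuclease MRP, had a naive density of 19.4 ± 9.15 and Rn7sk, an RNA that restrains transcription elongation, 17.7 ± 7.87. The window of Rmrp held the start of Ccdc107, and that of Rn7sk the start of C920006O11Rik. The Y RNA gene Rny1 had 3.97 ± 1.78 and the telomerase RNA gene Terc 2.22 ± 1.34. Bc1 is a rodent RNA found in neuronal dendrites, where it represses translation. It had 13.8, 14.6, 8.79, 8.5 and 19.5 in naive libraries (chr7:144914470-144914623), all well above the gene-body median, though the start of Oraov1 lay in its window.

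Genes of tissues outside the retina sat near or below gene-body density, far under the CpG-rich genes. The 42 hair keratin-associated and cornified envelope genes had a median density of 0.589, and the 9 genes of sperm chromatin and spermatids 0.554, with the protamine gene Prm1 at 0.807 ± 0.6. The 34 taste, trace amine, Mrgpr and formyl peptide receptor genes had 0.8, led by Tas2r118 at 3.11 ± 1.74. The 25 antimicrobial peptide genes, mostly Paneth cell defensins, had 0.174. The 15 cytokine and chemokine genes, each a type I interferon, had 0.418. Of hormone genes, Ucn had 0.827 ± 0.548, Ins1, the rodent-specific insulin gene, 0.786 ± 0.752 and Npff 0.528 ± 0.494. The inflammation-related genes Mt2, a metallothionein, and S100a8, a calcium-binding protein of neutrophils, had 2.98 ± 1.46 and 0.966 ± 0.513. Of the 139 genes above 5, none stood in the hair, sperm, taste, antimicrobial, cytokine or hormone lists. The cytokine Mif, with a density of 16.4, was not on the cytokine list, which holds interferons alone.

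A count of 0 in all 16 libraries was found for 211 short genes. All 139 on chromosome Y were among them, in libraries from female mice; over the whole chromosome, 29 of 352 intervals held 3746 reads together. The other 72 included 38 Gm genes, 21 of the 25 copies of the gene for the 5S ribosomal RNA and 5 of 22 alpha defensins, and 30 of the 72 lay on chromosome 8 and 22 on chromosome 7. A promoter entry was at hand for 37 of the 72, and all 37 were copied, in that at least 50% of their 30-base words also stood in a promoter over 5000 bp away or on another chromosome. The 102 copied promoters off chromosome Y had a median density of 0.0573, and 37 of them had a count of 0 in all libraries. The 400 promoters not copied had a median of 0.731, and none had a count of 0 in all libraries. A count of 0 over the 106 M (megareads) of nuclear reads in intervals allows up to 0.0282 reads per M (3 reads), and this limit covers counting error only. How reads with several alignments were treated is not given in the sources used here, and its part in these zeros was not tested.

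The type I interferon cluster on chromosome 4, looked at after its values were seen, shows the range within a small stretch. Its 16 members with Ifn names had naive densities of 0.152 to 0.854 and 22 to 92 reads in all libraries together; Ifnb1, which encodes interferon beta, had 0.47 ± 0.496. Of 9 Gm genes between them, Gm13286 had 18.4 ± 5.83 and Gm13283 14.9 ± 8.01, while the other 7 had 0 to 0.145. In naive libraries Gm13283 had 14.9, 15.3, 10.2, 6.35 and 27.6, and the adjacent Gm13286 was higher than it in all of them but the fifth, where both were nearly equal. All 5 libraries of both genes lay far above the other 7 Gm genes. The promoter of Gm13283 (chr4:88760524-88760823, plus strand) was 99.0% identical to that of Gm13285 (chr4:88800070-88800369, plus), with 3 of 300 bases different, yet Gm13283 had 1942 reads in all libraries and Gm13285 had 3. The promoter of Gm13285 had the same letters as those of Gm13272 and Gm13287, which had 18 and 19 reads in all libraries. By the measure of copied promoters above, 100% of the words of Gm13285 also stood in another promoter, against 66.8% for Gm13283. The pair thus differed in how far it was copied as well as in 3 bases. The promoters of Gm13283 and Gm13285 follow, from RefSeq in GRCm38.p6, with the 3 bases that differ in capitals. They are a case in which near-identical sequence came with very different counts. The part of the 3 bases and that of multiple alignment in this difference were not tested.
Gm13283: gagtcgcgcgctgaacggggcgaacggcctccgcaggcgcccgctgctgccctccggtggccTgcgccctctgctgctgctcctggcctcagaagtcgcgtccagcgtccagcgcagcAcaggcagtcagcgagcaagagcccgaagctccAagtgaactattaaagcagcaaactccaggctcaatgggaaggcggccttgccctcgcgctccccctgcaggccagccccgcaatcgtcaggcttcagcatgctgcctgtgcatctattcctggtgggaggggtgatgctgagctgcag
Gm13285: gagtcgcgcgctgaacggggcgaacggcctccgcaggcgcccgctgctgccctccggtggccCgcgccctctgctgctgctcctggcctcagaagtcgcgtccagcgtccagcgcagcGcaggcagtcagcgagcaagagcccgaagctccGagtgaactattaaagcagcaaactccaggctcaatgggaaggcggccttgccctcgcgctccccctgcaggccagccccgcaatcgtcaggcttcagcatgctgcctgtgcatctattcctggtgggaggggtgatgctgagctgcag

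The depth behind the stages differed. Nuclear reads in intervals were 2.23 to 8.17 M in presymptomatic, 4.18 to 15.0 M in onset, 1.58 to 3.7 M in peak and 4.67 to 15.1 M in naive libraries. Mitochondrial genes took 8.36% to 64.7% of the reads in intervals. Short genes held 6794 to 75422 reads per library. The share of nuclear reads in olfactory and vomeronasal receptor genes, a measure of reads at closed genes, was 0.31% to 0.405% in presymptomatic, 0.212% to 0.289% in onset, 0.246% to 0.508% in peak and 0.201% to 0.58% in naive libraries. Libraries correlated with each other at r of 0.834 to 0.96.

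The CpG-rich short genes as a class had a higher density at onset than in most naive libraries. Their median density was 13.0, 12.2 and 11.5 in the 3 onset libraries (12.2 ± 0.751), against a mean of 9.06 ± 2.82 over the naive libraries, whose highest reached 13.0. Presymptomatic libraries had 9.78, 6.73, 8.29 and 5.98 (7.69 ± 1.69) and peak libraries 6.58, 8.85, 5.55 and 7.24 (7.05 ± 1.38). The onset libraries lay close together at the top of the naive range and above all presymptomatic and peak libraries, and peak libraries lay within or just under the naive range. As a multiple of the same library's gene-body median, the CpG-rich median was 22.8, 22.9 and 15.9 in the onset libraries and 14.9, 16.7, 10.8, 11.2 and 23.2 in the naive ones, so that by this measure the groups overlapped widely. The pooled density of the CpG-rich genes was 16.8 ± 0.513 at onset (n = 3) and 12.8 ± 4.13 in naive libraries (n = 5), and that of the CpG-poor genes 1.71 ± 0.0808 and 1.53 ± 0.238. The gene-body median differed by less than its spread, with 0.609 ± 0.0994 at onset and 0.592 ± 0.0525 in naive libraries. Histone genes had library medians of 14.9 ± 3.59 at onset and 13.8 ± 6.39 in naive libraries, with wide overlap. All short genes took 0.517% ± 0.0141 of nuclear reads at onset and 0.41% ± 0.113 in naive libraries.

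**Figure D3:**
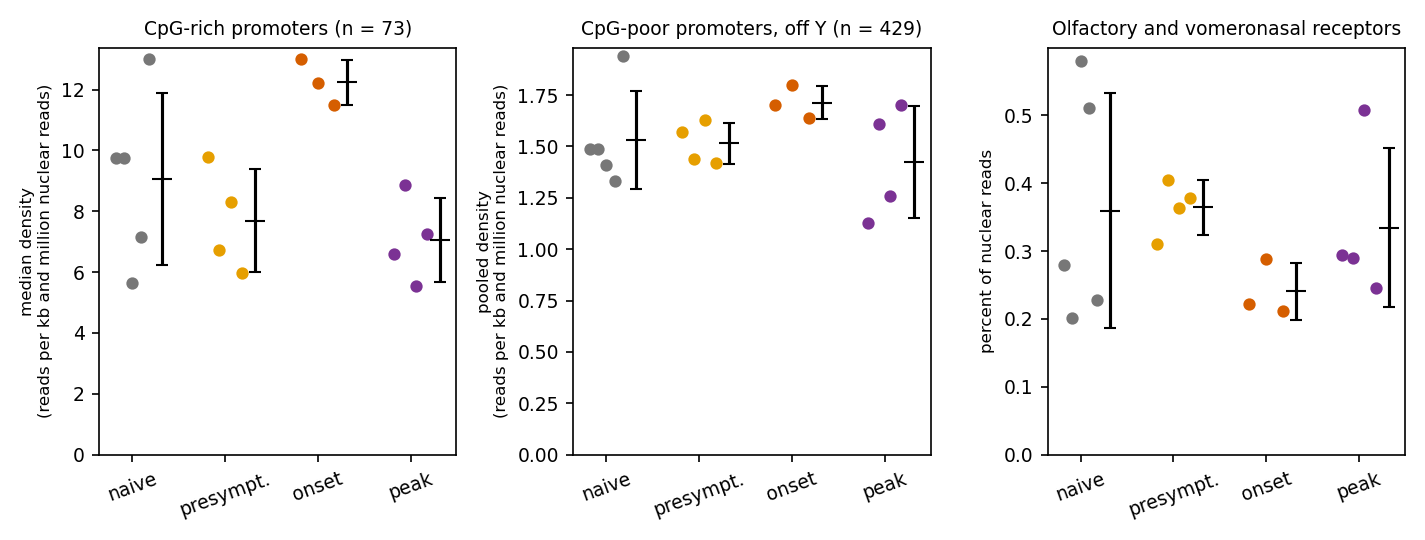
Each point is a library, grouped by stage from naive to peak, with the mean and SD. Left, median density of the 73 CpG-rich short genes; middle, pooled density of the 429 CpG-poor ones (both in reads per kb and M nuclear reads); right, percent of nuclear reads in receptor genes. The onset libraries stand at 11.5 to 13.0 on the left and at 0.212% to 0.289% on the right.

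Whether single genes differed between stages was tested with edgeR's quasi-likelihood test over all 29902 genes with enough reads, among them 426 of the 1185 short genes. The filter keeps genes by their reads, so that 63 of the 73 CpG-rich genes (86.3%) but 151 of the 429 CpG-poor ones (35.2%) were tested. A gene with few reads can pass through the libraries of a single stage, and a change at that stage is then favoured by the filter. Where those libraries are the naive ones, lower values at the other stages are favoured. At a Benjamini-Hochberg adjusted p of 0.05, 0 short genes and 0% of all genes passed in each of the 3 comparisons with naive and in the F test over stages. With DESeq2 and with limma-voom the count of short genes was 0 as well; DESeq2 called 1 of all genes at peak and 5 in the F test. The values that follow describe the genes nearest to a difference, and none of them is shown to differ. Levels of single genes between stages are given in CPM, counts per M reads scaled by TMM, and compare a gene with itself.

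Before symptoms, fewer short genes came near a difference than at the later stages. An unadjusted p under 0.05 was reached by 3 of 426 (0.704%), against 1.16% of all genes, and the median log2 fold change was -0.09, against -0.06 over all genes. It was above 0 for 167 short genes (39.2%) and for 41.6% of all genes. The CpG-rich genes had a median of -0.13, which was 0.06 without naive replicate 5, and the CpG-poor genes one of -0.02. Hypm, which encodes a protein related to histone H2A and is known from testis, had 1.09, 1.02, 1.09 and 0.931 CPM in presymptomatic libraries, against 0.427, 0.411, 0.306, 0.527 and 0.158 CPM in naive libraries. All 4 presymptomatic libraries lay above all 5 naive ones, on few reads (140 in all libraries), with a log2 fold change of 1.49 ± 0.66 (SE; edgeR adjusted p = 0.9998). Cypt2, of a family of sperm head proteins, was the other gene with all presymptomatic libraries above all naive ones, which held for 0.365% of all genes; its log2 fold change was 1.85 ± 0.86. The third was an unnamed transcript matched to Gm46325, at -3.23 ± 1.22. Naive libraries reached at most 0.527 CPM in Hypm and 0.613 CPM in Cypt2. Both genes entered the test through libraries of other stages, so the filter favoured their higher values there. No short gene had all presymptomatic libraries below all naive ones, against 0.482% of all genes.

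At onset the median change of short genes lay above that of all genes, most where promoters were CpG-rich. The median log2 fold change was 0.17 over the 426 tested short genes, of which 258 (60.6%) lay above 0, against -0.01 and 48.6% over all genes. That median was 0.0 with no filter on low counts and 0.10 (without onset replicate 2) to 0.31 (without naive replicate 5) when 1 library was left out. For the 63 CpG-rich genes it was 0.41 (interquartile range 0.21 to 0.52), and 58 of them (92.1%) lay above 0. For the 151 CpG-poor genes it was -0.07, with 69 above 0. The 113 tested genes with the start of a longer gene in the window had a median of 0.41, with 99 above 0. Without the 3 libraries of highest receptor share (2 naive and 1 peak) the CpG-rich median was 0.14; leaving out 1 library at a time gave 0.26 (without naive replicate 4) to 0.54 (without naive replicate 5). Those 2 naive libraries had receptor shares of 0.58% and 0.511%, against 0.222%, 0.289% and 0.212% in the onset libraries, and the part of this share in the shift was not tested.

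An unadjusted p under 0.05 at onset was reached by 18 short genes (4.23%), against 4.95% of all genes. Higher at onset were 14 of them (3.29% of the short genes tested), against 1.57% of all genes, and lower 4 (0.939%), against 3.38%. All 3 onset libraries lay above all 5 naive ones in 15 short genes (3.52%), against 1.6% of all genes, and below them in 4 (0.939%), against 0.936%. The 15 include a pair of unnamed transcripts with the same values (18.6 to 21.7 CPM at onset, 12.1 to 17.4 CPM in naive libraries), which may hold the same reads. Of all short genes with at least 100 reads, 3 had the counts of another interval in every library. The share at p under 0.05 was thus near the background, and the split between directions was the reverse of that over all genes. Of the CpG-rich genes 4 reached that p, each higher at onset: 2310001K24Rik, 1810012K16Rik, Gm34392 and 1700084E18Rik, all with the start of a longer gene in the window.

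Naa38, an auxiliary subunit of the N-terminal acetyltransferase NatC, had 10.3, 8.58 and 13.5 CPM at onset, against 5.98, 4.66, 3.52, 6.43 and 7.65 CPM in naive libraries. The groups did not overlap, and the log2 fold change was 0.94 ± 0.35 (edgeR adjusted p = 0.9721). 2310001K24Rik, whose window holds the start of Fitm2, a gene of lipid droplet formation, had 11.4, 12.9 and 13.4 CPM at onset, against 9.08, 6.58, 5.75, 8.43 and 6.78 CPM in naive libraries. Here too no onset library fell into the naive range, with a log2 fold change of 0.78 ± 0.30 (edgeR adjusted p = 0.9721). Gm33044, beside the start of the ubiquitin ligase gene Rnf34, had 10.4, 10.2 and 16.6 CPM at onset, against 4.81, 8.47, 5.21, 4.96 and 11.0 CPM in naive libraries. The fifth naive library overlapped the onset libraries, and the log2 fold change was 0.84 ± 0.33 (edgeR adjusted p = 0.9721). Gm31050 had 39.6, 38.3 and 55.1 CPM at onset, against 24.6, 25.1, 26.0, 29.1 and 43.6 CPM in naive libraries, and again the fifth naive library reached the onset values (0.58 ± 0.24, edgeR adjusted p = 0.9721). Of the 4 lower genes, Spanxn4, a sperm protein gene, had the smallest p, with a log2 fold change of -3.07 ± 1.10 on 83 reads in all libraries (edgeR adjusted p = 0.9721). The others were Fthl17f, a ferritin-like gene, at -2.57 ± 1.08, Gm33398 at -1.37 ± 0.65 and an unnamed transcript at -1.93 ± 0.88. In Spanxn4 naive libraries had 0.309 to 1.38 CPM and onset libraries 0 to 0.0921 CPM. Where such a gene passed the filter through naive libraries, its lower value at onset was favoured.

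At peak the CpG-rich short genes lay on the other side of all genes. Their median log2 fold change was -0.29, with 9 of 63 (14.3%) above 0, against a median of -0.20 over the 426 short genes, with 152 (35.7%) above 0, and of -0.03 over all genes, with 47.1% above 0. The CpG-poor genes had a median of -0.17. Leaving out 1 library at a time moved the CpG-rich median to between -0.52 (without peak replicate 2) and -0.11 (without naive replicate 5). An unadjusted p under 0.05 was reached by 30 short genes (7.04%), against 3.61% of all genes. Lower at peak were 24 of these (5.63% of the short genes tested), against 1.81% of all genes, and higher 6 (1.41%), against 1.8%. Of the CpG-rich genes 9 (14.3%) reached it, all lower. All 4 peak libraries lay below all 5 naive ones in 4 short genes (Gm7467, Spanxn4, Rnase12 and an unnamed transcript; 0.939%), against 0.475% of all genes, and above them in 1, Hypm, against 0.502%. Peak had the lowest mean depth, 3.03 ± 0.976 M nuclear reads.

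Mif had 3.54, 8.55, 4.98 and 4.66 CPM at peak, against 10.3, 8.85, 7.58, 8.22 and 13.3 CPM in naive libraries. Only the second peak library fell into the naive range, and the log2 fold change was -0.82 ± 0.30 (edgeR adjusted p = 0.9999). Snhg8 had 22.7, 31.9, 39.0 and 23.9 CPM at peak, against 41.3, 44.3, 45.0, 26.6 and 67.2 CPM in naive libraries. A single naive library, the fourth, reached down into the peak values (-0.61 ± 0.25, edgeR adjusted p = 0.9999). Higd2a had a log2 fold change of -0.60 ± 0.29 (edgeR adjusted p = 0.9999), and Ufsp1, a protease gene of the ubiquitin-like UFM1 pathway, one of -1.54 ± 0.68. Hypm had 0.85, 0.855, 2.89 and 1.87 CPM at peak, against the naive values of 0.158 to 0.527 CPM given above. No peak library fell into the naive range, and its log2 fold change of 2.11 ± 0.67 had the smallest p of the higher genes (edgeR adjusted p = 0.9999). Hypm and other higher genes, such as the hair protein gene Krtap15 (2.31 ± 0.92) and 1700116B05Rik (1.99 ± 0.81), had few reads. Naive libraries reached at most 0.527 CPM in Hypm, 0.46 CPM in Krtap15 and 0.473 CPM in 1700116B05Rik. These genes entered the test through libraries of other stages, so the filter favoured their higher values there. The list of Krtap15 had the opposite sign, with 9 of 13 tested hair and cornified envelope genes below 0 and a median of -0.86. On the lower side the defensin gene Defa30 had -3.38 ± 1.24 and Gm32404 -2.12 ± 0.78. In Defa30 naive replicate 3 had 3.37 CPM and the other naive libraries 0.158 to 0.738 CPM. In Gm32404 naive libraries had 1.16 to 4.02 CPM and peak libraries 0 to 1.24 CPM. Where such a gene passed the filter through naive libraries, its lower value at peak was favoured.

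**Figure D4:**
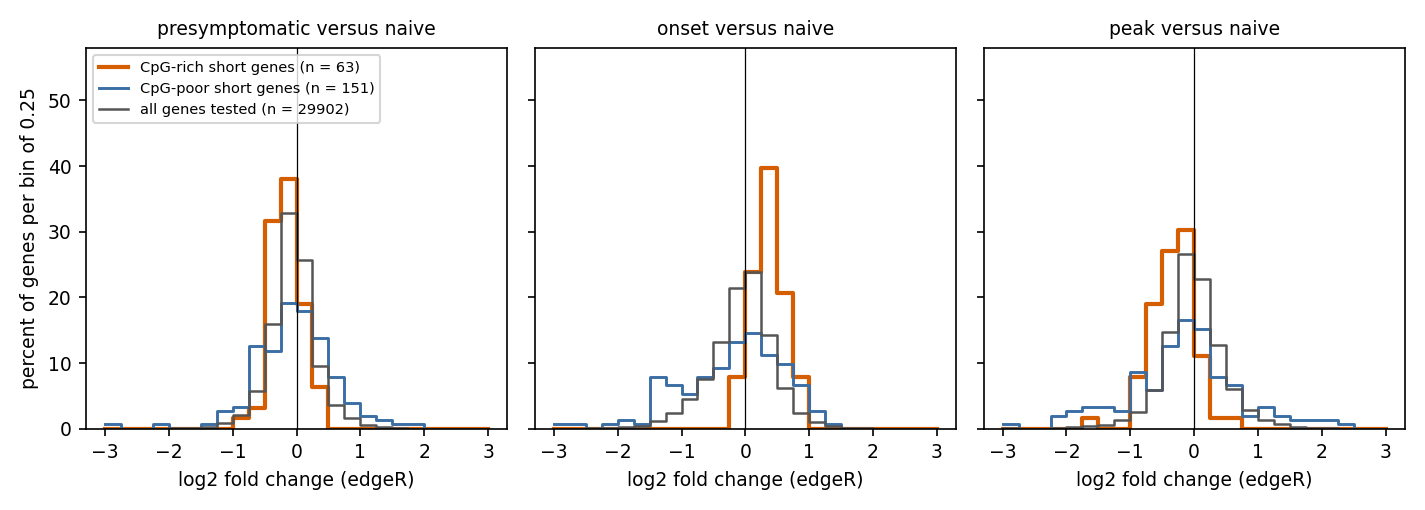
Share of tested genes by log2 fold change against naive, in bins of 0.25, for presymptomatic, onset and peak; curves stand for CpG-rich short genes (n = 63), CpG-poor short genes (n = 151) and all genes (n = 29902). The CpG-rich curve lies right of all genes at onset (median 0.41) and left of them at peak (median -0.29).

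Over the 4 stages together, 27 short genes (6.34%) had an F test p under 0.05, against 3.16% of all genes, and 9 of the 63 CpG-rich genes (14.3%) did. The smallest was that of 1700084E18Rik, whose window holds the start of the volume-regulated channel gene Lrrc8a (edgeR F test, adjusted p = 0.9999). It had 8.55, 9.88, 7.89, 9.8 and 16.2 CPM in naive, 7.96, 5.87, 8.16 and 7.68 CPM in presymptomatic, 13.8, 13.7 and 20.7 CPM in onset and 8.36, 7.27, 5.14 and 5.6 CPM in peak libraries. Onset was high and overlapped naive through the fifth naive library alone. Mif too was highest at onset, with 12.7, 14.9 and 15.5 CPM at onset (edgeR F test, adjusted p = 0.9999). The onset libraries of Mif lay above every presymptomatic and peak library and above all naive libraries but the fifth. In 1810012K16Rik, with the start of the mitochondrial ornithine carrier gene Slc25a15 in its window, onset had 12.2, 11.0 and 8.85 CPM and naive libraries 3.63, 8.61, 6.74, 5.38 and 8.2 CPM (edgeR F test, adjusted p = 0.9999). Its onset and naive libraries did not overlap, but presymptomatic replicate 3 had 12.8 CPM, above all onset libraries. These comparisons share the naive libraries.

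**Figure D5:**
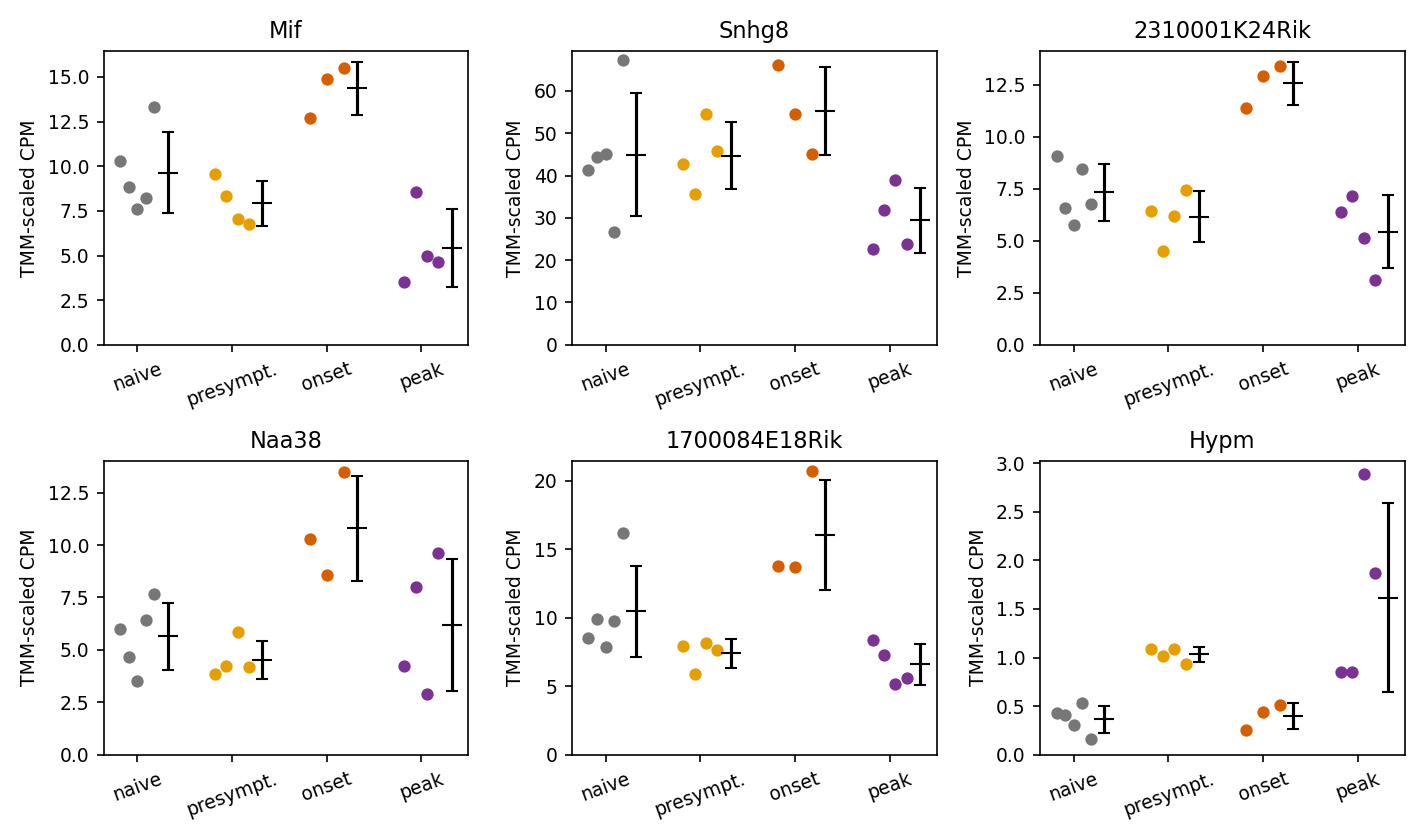
TMM-scaled CPM per library in Mif, Snhg8, 2310001K24Rik, Naa38, 1700084E18Rik and Hypm by stage from naive to peak, with the mean and SD of each stage. In 2310001K24Rik and Naa38 the onset libraries (11.4 to 13.4 and 8.58 to 13.5 CPM) clear the naive ones, and in Hypm the presymptomatic and peak libraries do.

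Among genes of cell maintenance, Mrpl34 and Mrpl53 had onset log2 fold changes of 0.59 ± 0.33 and 0.51, with a list median of 0.55, and a list median of -0.47 at peak. Higd2a and Coa3 had a list median of 0.60 at onset and -0.33 at peak. Sf3b5 had 0.28 ± 0.27 at onset and -0.38 ± 0.25 at peak, and the densest gene, 4632427E13Rik, 0.20 ± 0.30 and -0.33 ± 0.28. Of the 28 tested structural and spliceosomal small RNA genes, 21 lay above 0 at onset (median 0.24) and 8 at peak (median -0.18). Bc1 had 0.31 ± 0.33 at onset and 0.43 ± 0.31 at peak. The 13 tested hair and cornified envelope genes had a median of -1.05 at onset, with 3 above 0, and the 14 tested taste and related receptor genes one of -0.59, with 2 above 0; both are low-count lists. Mt2 had 0.75 ± 0.53 at onset and 0.19 at peak, and S100a8 0.65 ± 0.82 and 1.12 ± 0.77. Of the 15 genes on the cytokine list 1 had enough reads to be tested, the interferon gene Ifna7, named after its values were seen. With 71 reads in all libraries it had log2 fold changes of -0.55 before symptoms, 0.16 at onset and 1.86 at peak. Its density was 1.66, 0, 2.03 and 1.78 in the peak libraries and at most 0.649 in the naive ones. Ifna7 passed the read filter through peak libraries, so its peak value was favoured by the filter. The other 14 genes of the list give no comparison at this depth. No gene of any list passed an adjusted p of 0.05 in any comparison.

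The limit of 1000 bp sets who belongs to these genes. Just inside it, at a span of 999 bp, stood the trace amine receptor gene Taar1 with a naive density of 0.748 and Gm36718 with 0.310, and the chromosome Y gene Gm20806 with 0. Just outside stood 4921533I20Rik at 1000 bp with 1.25, an unnamed transcript at 1001 bp with 0 and 1700064F23Rik at 1002 bp with 1.52.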

How the data were processed

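ATAC-seq libraries of sorted retinal ganglion cells were counted per gene by the authors. The submitters' processing notes list the tools cutadapt, HISAT2 and HTSeq, with no version. Per the labels, libraries were amplified for 10 cycles. The genome build, annotation, counting strand, duplicate handling, read shift and treatment of multiply aligned reads are not given in the sources used here. A deposited count is a whole number per gene interval, without scaling. The deposited RPKM divides that count by a library total and by the absolute difference between span and 2000 bp. With that length, 1 total per library returned every value, to a relative spread of 9.2e-14, which fixes the counted window. RPKM served only for this check.

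Density divides counts by the window and by nuclear reads in intervals. All 37255 intervals entered edgeR 4.0.16 in R 4.3.3, with filterByExpr, TMM scaling and a quasi-likelihood fit of the 4 stages to the 16 libraries. P-values were adjusted by Benjamini-Hochberg over the 29902 genes kept. The SE of a fold change was derived from the test, as the size of the log2 fold change over the square root of its F value. The script was tested on simulated counts. Tables were handled with pandas 2.3.3 under Python 3.11.15. DESeq2 1.42.0, limma 3.58.1 voom, other scalings and filters, a replicate block and left-out libraries were alternatives. Library depth is given in the report; with 1.58 to 3.7 M nuclear reads, peak libraries are the least precise.

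Promoter classes came from RefSeq sequences, and overlaps from deposited coordinates, whose build is not stated. The genes, the lists of functions and the promoter classes were chosen with earlier results of these data known; the definition of a copied promoter, Bc1 and the other genes said to be picked after their values were seen, the interferon cluster and the CpG-rich stage medians were added after seeing the data. Named genes are those of highest naive density (12 with a window of their own and 5 of any kind), the 5 smallest p on each side of each comparison and in the F test, up to 3 per list, and those nearest to 1000 bp; the text prints a part of them. Of 19 gene lists 15 had members, among them the list of immediate early and small transcription factors with Sox6os alone (an opposite-strand transcript, naive density 2.52). Nothing in the labels ties equal numbers of different stages to a shared animal or day, so the main fit used no block.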

Additional observations from a re-analysis of the deposited data

Results flagged for a closer look

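A library was marked where its distance to the nearest library of its stage, as a share of the stage's range, exceeded Dixon's critical value. Of 150 groups tested, 14 gave a mark, and chance would give 7.5 at 1 in 20. Peak replicate 4 had 1.58 M nuclear reads in intervals, below the 3.39 to 3.7 M of the other peak libraries, and its median density over CpG-poor short genes was 0, below 0.37 to 0.441. Naive replicate 5 stood above the other naive libraries in Gm31050 (43.6 CPM, others 24.6 to 29.1), 1700084E18Rik (16.2 CPM, others 7.89 to 9.88), Gm32404 (4.02 CPM, others 1.16 to 1.68) and Gm34157 (density 51.3, others 13.2 to 23.9). Naive replicate 3 stood above the others in Defa30 (3.37 CPM, others 0.158 to 0.738) and Gm2837 (0.996 CPM, others 0 to 0.105). Presymptomatic replicate 4 did so in Kif16bos (density 32.2, others 17.8 to 20.1) and Cypt2 (2.79 CPM, others 0.729 to 0.943), and presymptomatic replicate 3 in 1810012K16Rik (12.8 CPM, others 7.6 to 7.92). In peak libraries replicate 3 was high in Cypt2 (2.89 CPM, others 0 to 0.285) and was the 1 library with reads in Defa30 (0.321 CPM, others 0), and replicate 4 was high in 1810049I09Rik (3.42 CPM, others 1.93 to 2.0). Naive replicate 5 had the highest CpG-rich median density of its stage, 13.0, and the values without it are given with the processing alternatives.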

How the results depend on the processing

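No short gene passed an adjusted p of 0.05 under any alternative run. None of the 30 fold changes of single genes recomputed under them reversed (smallest adjusted p 0.193). These 30 were picked for the smallest p in the same libraries, so a reversal was unlikely from the start. Some, such as Cypt2 and Defa30, had no value in part of the runs. Other named genes were not recomputed. Of all genes DESeq2 called 1 at peak and 5 in the F test, total-count scaling 2 in the F test, and leaving out the 3 libraries of highest receptor share (naive 3 and 4, peak 3; added after seeing the data) 1 in the F test. The median log2 fold change of short genes was 0.19 before symptoms and 0.71 at onset with total-count scaling, where all genes had medians of 0.26 and 0.60, so that short genes lay below all genes before symptoms and above them at onset. Without the filter the onset median was 0.0, and with voom weights 0.29. Without the 3 libraries it was -0.25 before symptoms, 0.10 at onset and -0.35 at peak, and the cause was not tested. Leaving out 1 library at a time gave -0.17 to 0.03 before symptoms, where the sign turned without naive 5 (0.03), 0.10 to 0.31 at onset (highest without naive 5) and -0.33 (without peak 2) to -0.10 at peak.

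For the CpG-rich genes the same ranges were -0.25 to 0.06 (0.06 without naive 5), 0.26 to 0.54 (without naive 4 and naive 5) and -0.52 to -0.11 (without peak 2 and naive 5). Without naive 3 they were -0.25, 0.29 and -0.43, and without naive 4 the peak value was -0.41. Total-count scaling gave 0.10 before symptoms and 0.96 at onset. Without the libraries labelled 16 and 17 the presymptomatic value was 0.00, and without presymptomatic 4 it was -0.02. Without the 3 libraries of highest receptor share it was -0.35, 0.14 and -0.46.

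Same-numbered libraries deviated with r of -0.342 to 0.373 (median -0.006), and other pairs with r of -0.335 to 0.336 (median 0.013). With ranges this alike and few libraries per stage, the comparison cannot decide whether equal numbers share an animal or day. With the replicate block short genes had medians of 0.05 before symptoms and 0.30 at onset, CpG-rich genes 0.08, 0.56 and -0.12 at peak, and 0 short genes were called. The naive median density was 0.901 per kb of span and 0.218 per M of all reads in intervals, with 17.5 and 4.66 for CpG-rich genes; leaving out a naive library gave 0.446 to 0.476.

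Depth limits the tests: 759 of the 1185 short genes were not tested, and the median short gene had 66 reads over all libraries.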
